A study of Mus musculus with 2 samples.

Results

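Tissue inhibitors of metalloproteinases (TIMPs) and proteases of the ADAM and ADAMTS families were followed across the cell types of inflamed mouse colon. The 9 genes Timp1, Timp2, Timp3, Adam8, Adam10, Adam17, Adamts1, Adamts4 and Adamts5 were taken by symbol, and all 9 were found among the 55357 genes of the deposited matrices. The study ran droplet single-cell RNA sequencing on the mid-colon of mice aged 7 weeks, kept free of specific pathogens, given dextran sulfate sodium (DSS), which damages the gut epithelium, at 3% for 6 days. The 2 libraries, labelled repeat 1 and repeat 2, form 1 group. Without an untreated group among the samples analysed, no value below describes an effect of DSS. Whether each repeat was another animal is not given in the labels, nor are strain and sex, and p-values therefore measure only the spread between these libraries, which may be technical.

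TIMPs are small secreted proteins that bind matrix metalloproteinases (MMPs) in their active site. Timp3 differs from the other members of its family by holding fast to the extracellular matrix and by inhibiting ADAM17 and ADAMTS enzymes as well. ADAM proteases sit in the cell membrane and shed the outer parts of other membrane proteins, such as growth factor precursors, cytokines and adhesion molecules. ADAMTS enzymes lack a membrane anchor and cut matrix proteoglycans such as versican. In the colon these families take part in epithelial growth factor release, leukocyte migration and matrix turnover.

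After filtering, 5419 cells of library 1 and 8425 of library 2 were kept, with medians of 7925 and 6462 unique molecular identifiers (UMIs) per cell. The libraries shared 18 barcodes, 14 of them among the kept cells. Clusters were named from marker genes, with the members held out of the clustering, and each name means "like" that cell type. Among the 9 classes that had 20 or more cells in both libraries, fibroblasts held 90 and 187 cells, endothelial cells 66 and 136, mononuclear phagocytes 844 and 2683, neutrophils 438 and 930 and epithelial cells 1789 and 1195. Smooth muscle or pericyte cells, with 13 and 23, were too few for the tests, and 253 and 276 cells stayed unnamed. Levels are UMIs counted per 1e6 UMIs of a class (CPM), given for library 1 and then library 2, and counting error is the only error that the intervals below cover. Levels are compared between classes, not between genes.

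Positions follow the GENCODE M21 annotation of GRCm38, and all 9 genes are protein coding. Timp1 lies at chrX:20870166-20874735 on the plus strand, Timp2 at chr11:118301069-118355740 on the minus strand and Timp3 at chr10:86300372-86349506 on the plus strand. Adam8 lies at chr7:139978932-139992562 on the minus strand, Adam10 at chr9:70678997-70780229 on the plus strand and Adam17 at chr12:21323509-21373632 on the minus strand. Adamts4 lies at chr1:171250421-171260637 on the plus strand. Adamts1 (chr16:85793827-85803113) and Adamts5 (chr16:85856173-85901828) are neighbours on the minus strand, 53059 bases apart with 1 gene and no protein-coding gene between them. Several members overlap a gene on the other strand, namely Timp1 with Syn1, Timp3 with Syn3 and Adam17 with Iah1. The sources used here do not state whether counting used strand, so reads of these pairs may not be separable.

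RefSeq promoter windows (GRCm38.p6, 250 bases before to 50 after a gene's start) were matched for 7 members: Timp1, Timp2, Timp3, Adam8, Adam10, Adam17 and Adamts1. Those of 3 members are shown because their levels carry the patterns below: Timp1, shared between fibroblasts and phagocytes, and Timp3 and Adamts1, both highest in endothelium among the tested classes. Capitals mark the Sp1 motif GGGCGG on either strand and the TATA motif TATAAA on the gene's strand, which do not overlap each other.
Timp1 promoter (chrX:20869916-20870215, strand +): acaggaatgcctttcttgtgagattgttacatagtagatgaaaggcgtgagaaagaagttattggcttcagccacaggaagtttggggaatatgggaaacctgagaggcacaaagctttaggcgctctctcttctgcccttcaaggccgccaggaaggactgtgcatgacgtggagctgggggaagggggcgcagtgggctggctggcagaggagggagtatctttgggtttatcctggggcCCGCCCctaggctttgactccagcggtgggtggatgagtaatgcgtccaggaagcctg
Timp3 promoter (chr10:86300162-86300461, strand +): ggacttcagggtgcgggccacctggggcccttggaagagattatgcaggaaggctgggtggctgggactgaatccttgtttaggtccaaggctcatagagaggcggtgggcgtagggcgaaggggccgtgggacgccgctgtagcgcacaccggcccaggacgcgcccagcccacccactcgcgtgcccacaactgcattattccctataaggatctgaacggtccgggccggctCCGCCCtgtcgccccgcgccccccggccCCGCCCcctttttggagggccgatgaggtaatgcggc
Adamts1 promoter (chr16:85803064-85803363, strand -): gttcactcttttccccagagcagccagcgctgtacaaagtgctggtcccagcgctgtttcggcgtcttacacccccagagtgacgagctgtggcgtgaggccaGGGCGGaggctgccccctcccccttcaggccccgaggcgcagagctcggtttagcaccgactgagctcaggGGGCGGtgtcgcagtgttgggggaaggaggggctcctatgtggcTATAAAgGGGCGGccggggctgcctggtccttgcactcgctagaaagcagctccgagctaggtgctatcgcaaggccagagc
The Sp1 motif was in the windows of all 7 matched members, against 35.7% of 32851 windows in the table, and the TATA motif was in that of Adamts1 alone, against 8.32%. The AP-1 motif TGANTCA, searched on both strands, was in none of the 7 and in 7.81% of all windows. A match describes these letters only.

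Each of the 9 members had 1 class whose level was higher than that of every other tested class. Smooth muscle or pericyte cells entered no test outside the alternatives. Their mean level was above that of the leading class for Adamts4 (335 against 211 CPM) and Adamts1 (502 against 483), with overlapping values for both. The call of a leading class took the largest of the p-values against the other 8 classes from edgeR's quasi-likelihood test on UMIs summed per library and class, adjusted by Benjamini-Hochberg over 14434 genes. It was met by 37.7% of all genes tested, so a leading class was common and the class itself is what the members add. Endothelial cells led for 4 members (Timp3, Adam10, Adamts1 and Adamts4), fibroblasts for 3 (Timp1, Timp2 and Adamts5), neutrophils for Adam8 and phagocytes for Adam17. With TMM-normalised levels (scaled by edgeR's trimmed mean of M-values), the lower of the leading class's values lay above the higher value of every other tested class for all 9 members. On plain CPM this held for 8, and for Adam17 the ranges touched, at 99.0 in phagocytes of library 1 and 99.1 in endothelial cells of library 2.

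**Figure D1:**
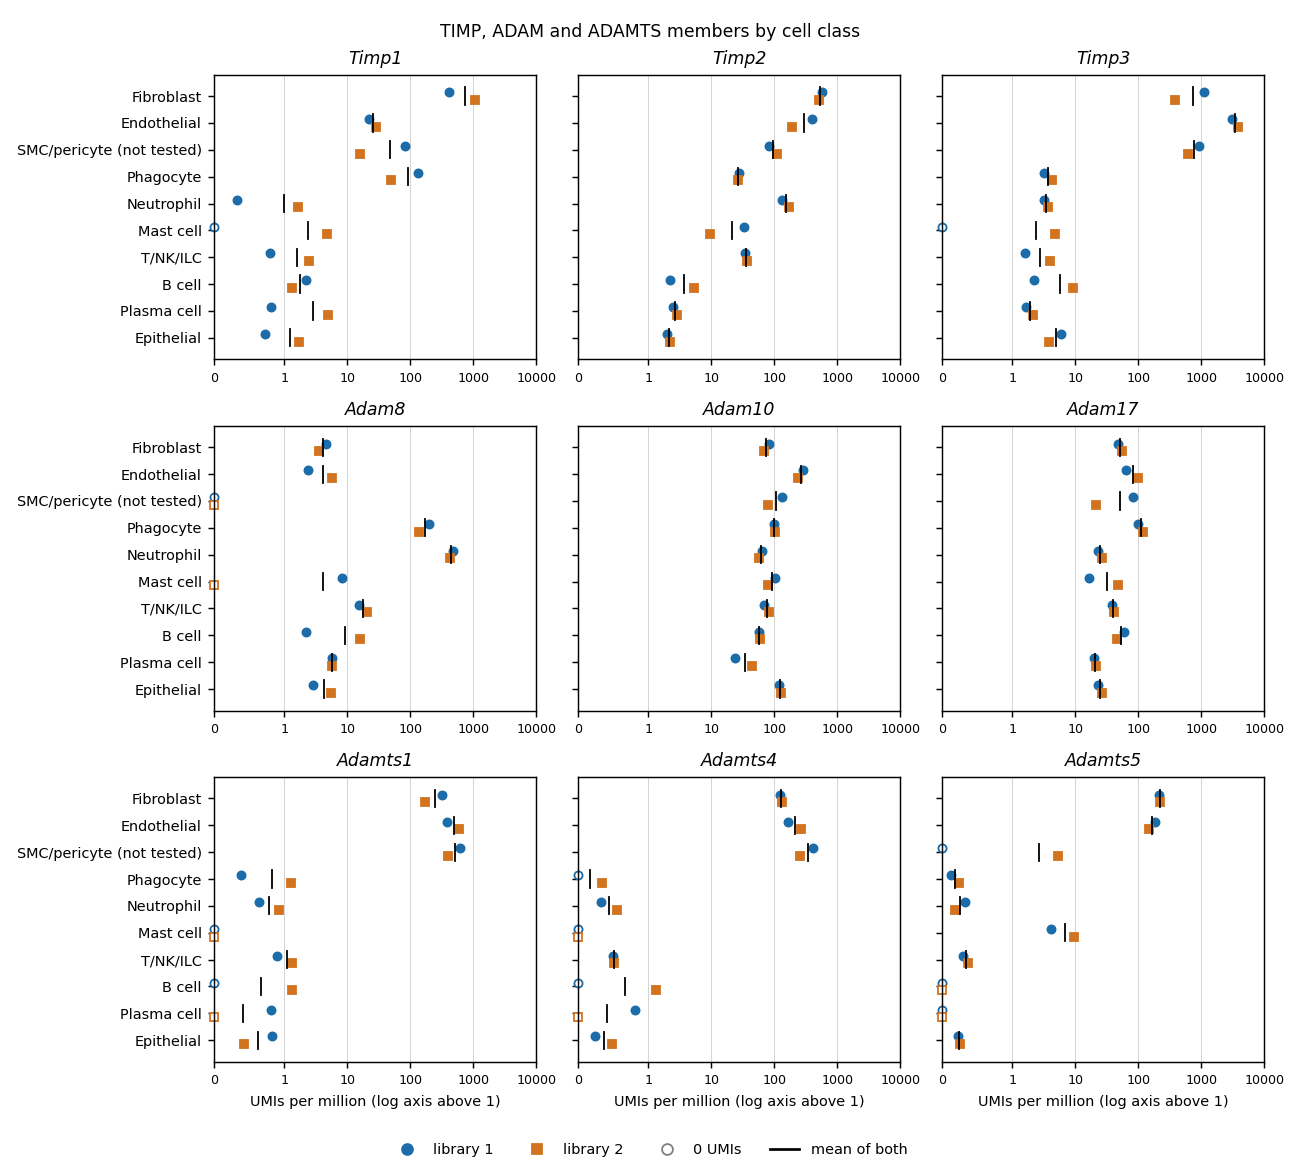
Level of each member in 10 cell classes, in CPM on an axis that is linear from 0 to 1 and logarithmic above, with 1 point per library and a bar at the mean of both. The 3 Adamts genes and Timp3 stood at 123 or more in fibroblasts and endothelial cells of both libraries and at 9.39 or less in every immune class and in epithelium, whereas Adam10 and Adam17 were seen in every class.

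Timp1, the secreted inhibitor of most soluble MMPs, was highest in fibroblasts. Its level there was 407 and 1046 CPM (358 and 2655 UMIs), against 131 and 49.5 in phagocytes and 21.7 and 28.6 in endothelial cells. Both fibroblast values were above both phagocyte values, although the libraries moved in opposite directions in the 2 classes. The lead of fibroblasts over phagocytes was 2.46 ± 0.41 (log2, SE; adjusted p = 3.27e-05), and phagocytes in turn were above endothelial cells (2.46 ± 0.57, adjusted p = 0.00109). The other tested classes stood at 4.98 CPM or less. Without library 1 the lead was 4.07 and without library 2 it was 1.18.

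The class holding most Timp1 UMIs was not the same in both libraries. Fibroblasts were 1.66% and 2.22% of cells. They held 24.3% of Timp1 UMIs in library 1 (exact binomial 95% interval 22.1 to 26.6) and 68.9% in library 2 (67.4 to 70.3). Phagocytes held 70.8% (68.4 to 73.1) and 27.1% (25.7 to 28.5), while being 15.6% and 31.8% of cells. The fibroblast UMIs were also uneven between cells: the 5 richest cells held 61.7% of them in library 1 and 38.5% in library 2, with up to 103 and 372 UMIs in 1 cell. After thinning every cell to 2000 UMIs, 22.7% (13.8 to 33.8) of 75 fibroblasts and 43.0% (35.7 to 50.6) of 179 held a Timp1 UMI, from 54.4% and 71.7% before thinning, with 15 and 8 shallower cells left out. The thinned share in T, NK and innate lymphoid cells, where the highest count in a cell was 1, was 0.127% and 0.386%. Median depth was 8597 and 12610 UMIs in fibroblasts and 5246 and 4689 in these lymphoid cells.

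Timp2, which inhibits MMPs and also takes part in activating pro-MMP2 at the cell surface, was spread over the most unlike classes. Fibroblasts stood at 560 and 509 CPM, endothelial cells at 389 and 192 and neutrophils at 134 and 168. Lymphoid cells of the T, NK and innate class (34.6 and 37.0) and phagocytes (27.3 and 26.4) were lower, and epithelial cells stood at 2.24 or less. The order of neutrophils and endothelial cells depends on scaling: neutrophils came next to fibroblasts after TMM normalisation (280 and 326 against 289 and 151 in endothelium), which raises every neutrophil gene because their TMM factors were 0.479 and 0.519. The lead of fibroblasts over neutrophils was 0.54 ± 0.20 on that scale (adjusted p = 0.0328), and the ratio of mean levels was 1.46 with TMM and 3.54 without. Neutrophils held 22.8% and 24.9% of Timp2 UMIs with 8.08% and 11.04% of cells. After thinning, 23.9% (19.8 to 28.3) of 406 neutrophils and 27.4% (24.4 to 30.5) of 869 had a Timp2 UMI, against 0.341% and 0.688% of epithelial cells. The unthinned shares were 53.7% and 56.6% in neutrophils and 3.80% and 5.86% in epithelial cells, at median depths of 6792.5 and 5697.5 against 17813 and 23929 UMIs.

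Timp3, the matrix-bound inhibitor, was an endothelial and mesenchymal transcript. Endothelial cells stood at 3001 and 3771 CPM and fibroblasts at 1100 and 385, and the other tested classes were at 9.25 or less. The endothelial lead over fibroblasts was 2.18 ± 0.33 (adjusted p = 9.13e-06), and fibroblasts were above the next class by 6.36 ± 0.46 (adjusted p = 3.14e-11). Without library 1 the endothelial lead was 3.17 and without library 2 it was 1.32. Of all Timp3 UMIs, endothelial cells held 45.4% in library 1 and 71.8% in library 2 while being 1.22% and 1.61% of cells. Nearly every endothelial cell held one: 88.5% (76.6 to 95.6) of 52 and 95.9% (90.7 to 98.7) of 122 cells thinned to 2000 UMIs, against 0.381% and 0.858% of lymphoid cells of the T, NK and innate class. Syn3, on the other strand, had 549 UMIs against 8251 for Timp3 and was itself highest in endothelial cells (187 CPM over both libraries). Its part in the Timp3 count was not tested.

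**Figure D2:**
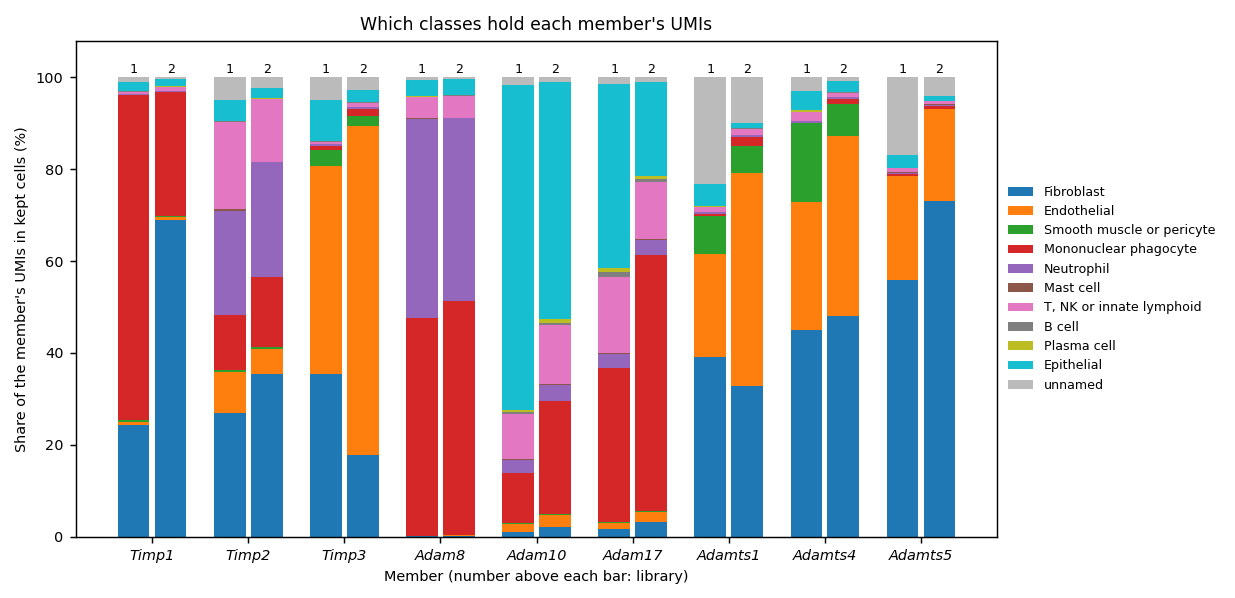
Share of each member's UMIs (per cent, in kept cells) held by each cell class, 1 bar per library. Fibroblasts and endothelial cells held most UMIs of Timp3 and the 3 Adamts genes, neutrophils and phagocytes nearly all of Adam8, and epithelial cells most of Adam10, at 70.8% and 51.7%.

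Adam8 encodes a shedding protease that leukocytes carry and that forms multimers to activate itself. Neutrophils stood at 468 and 420 CPM and phagocytes at 200 and 139, and T, NK and innate lymphoid cells came next at 15.5 and 20.4. The neutrophil lead over phagocytes was 2.25 ± 0.24 with TMM (adjusted p = 5.96e-08), and the ratio of means was 4.75 with TMM and 2.61 on plain CPM. Phagocytes were above the lymphoid class by 3.67 ± 0.26 (adjusted p = 2.47e-11). The myeloid classes together held the bulk of Adam8: phagocytes 47.5% and 51.2%, neutrophils 43.4% and 39.7%. A thinned UMI was found in 60.6% (55.7 to 65.4) of neutrophils of library 1 and 54.7% (51.3 to 58.0) in library 2, against 0.626% and 0.602% of epithelial cells. Unthinned shares were 85.4% and 81.9% against 5.70% and 10.9%. No Adam8 UMI was counted in smooth muscle or pericyte cells.

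Adam10, the shedding protease that starts Notch cleavage and releases E-cadherin, was detected in all classes at 23.5 CPM or more. Endothelial cells were highest at 288 and 232 CPM, before epithelial cells at 120 and 129 and phagocytes at 97.1 and 102. The lead of endothelium over epithelium was 0.62 ± 0.18 (adjusted p = 0.00853), the ratio of mean plain CPM was 2.09, and the highest class mean was 7.61 times the lowest. Below the leader the order was shallow. Epithelial cells did not differ from neutrophils, nor neutrophils from phagocytes, beyond the spread (adjusted p = 0.669 and 0.570). Phagocytes were above mast cells (0.69 ± 0.26, adjusted p = 0.0477). By amount, epithelium held 70.8% (69.7 to 71.8) and 51.7% (50.6 to 52.7) of Adam10 UMIs, from 61.7% and 42.7% of all UMIs, and endothelial cells held 1.69% and 2.78%.

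Adam17, the TNF-converting enzyme that also releases EGF receptor ligands, was likewise found everywhere. Phagocytes stood at 99.0 and 120 CPM, endothelial cells at 62.8 and 99.1, B cells at 59.4 and 46.3 and fibroblasts at 46.6 and 55.6. Epithelial cells were at 22.6 and 26.3. The phagocyte lead over endothelial cells was 0.90 ± 0.21 with TMM (adjusted p = 0.00134), for a ratio of means of 1.93 with TMM and 1.35 without. From endothelial cells down, no class differed from the next in the order (adjusted p from 0.133 to 0.860). Phagocytes held 33.6% and 55.9% of Adam17 UMIs and epithelial cells 39.9% and 20.5%. Iah1, which overlaps on the other strand, had 5171 UMIs against 6862 for Adam17 and was highest in epithelial cells (40.9 CPM), the class where Adam17 was second lowest by TMM level.

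The 3 ADAMTS members marked stroma. Adamts1, a protease of versican with antiangiogenic repeats, stood at 384 and 582 CPM in endothelial cells and 318 and 169 in fibroblasts. Adamts4, an aggrecanase, stood at 162 and 261 in endothelial cells and 123 and 132 in fibroblasts. Adamts5, the other main aggrecanase, went the other way, with 214 and 219 in fibroblasts and 184 and 146 in endothelial cells. For each, both values of the leading class were above both values of the second. The leads were small: 0.97 ± 0.27 for Adamts1 (adjusted p = 0.00640), 0.63 ± 0.22 for Adamts4 (adjusted p = 0.0253) and 0.54 ± 0.18 for Adamts5 (adjusted p = 0.0233).

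Outside these stromal classes the Adamts transcripts were close to absent. Adamts1 had 49 UMIs in all in epithelial cells, where its level was 0.820 and 0.426 CPM, and no UMI in mast cells, which puts endothelium at least 80.0-fold higher with the mast cell class set at a floor of 3 UMIs over both libraries. Adamts4 in endothelium was likewise at least 35.4-fold above mast cells. Adamts5 in fibroblasts was at least 88.0-fold above B cells and at least 192-fold above plasma cells, both with 0 UMIs. Mast cells were the next class for Adamts5, with 1 and 2 UMIs, a ratio of 33.2 to fibroblasts with a counting interval of 11.3 to 161.

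Cells outside the tested classes also held Adamts transcripts. Smooth muscle or pericyte cells stood at 606 and 397 CPM for Adamts1, 414 and 256 for Adamts4 and 930 and 601 for Timp3, from 41 to 115 UMIs per gene and library, and at 0 and 5.23 for Adamts5. Unnamed cells held 23.2% and 9.90% of Adamts1 UMIs at 120 and 126 CPM, and 2.92% and 0.715% of those of Adamts4. Of their Adamts1 UMIs, 165 of 166 and 96 of 130 lay in a cluster led by the smooth muscle genes Tagln, Acta2 and Myh11, left unnamed because 11.3% of its cells held 2 markers, with a median of 1119 UMIs per cell.

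Each class was then set against the mean of the others. Fibroblasts were higher for 6 members (background 28.9%) and lower for Adam8 and Adam10 (20.3%). Endothelial cells were higher for 7 (21.6%) and lower for Adam8 (13.9%). Phagocytes were higher for Timp1, Adam8, Adam10 and Adam17 (29.1%) and lower for Timp3 (15.3%). Neutrophils were higher for Timp2, Adam8 and Adam10 (28.0%) and lower for none (27.4%). Their Adam10 call (0.59 ± 0.14, adjusted p = 0.000833) rests on the TMM scale, since their plain level of 62.9 and 57.4 CPM was below that of 6 of the other classes in both libraries. Epithelial cells were higher for Adam10 alone, by 0.69 ± 0.12 (adjusted p = 3.36e-05; background 37.1%), and lower for 5 (21.7%). T, NK and innate lymphoid cells were higher for none (29.2%) and lower for 4 (17.3%). B cells were higher for none (16.2%) and lower for Timp2 and Adam10 (13.9%), and plasma cells were higher for none (19.0%) and lower for 3 (17.7%). Mast cells differed for none in either direction (10.2% and 7.6% of genes), at 456321 UMIs for the class. Over the 9 members the median difference was 6.12 in fibroblasts and 3.26 in endothelial cells, against 0.02 and -0.03 over all genes. With sums below 3 UMIs set at that floor and no TMM scaling it was 5.93 and 3.55, against 0.21 and 0.44 over all genes. Of the members, 6 were at or under 3 UMIs in mast cells, 4 in B cells and 3 in plasma cells, and none in fibroblasts or endothelial cells. Some may have passed the filter on low counts through fibroblasts or endothelial cells, so the counts and medians of those classes are a description only.

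Likeness of pattern was measured as Pearson's r of log2(CPM + 1) over the 18 sums of library and class, a description over points that share libraries and depth. Adamts1 was most like Adamts4 (r = 0.996), Fbln5 and Wwtr1, and Adamts4 was most like Fermt2, Tmem47 and Adamts1. Timp3 was most like Pcsk6, Adamts1 and Eml1 (all 0.983). For Adamts5 the nearest genes were Ahnak2, Col15a1 and Msrb3 (0.971 to 0.972). Timp2 was nearest to Selenon (0.928), to Reck (0.925), which encodes a membrane-anchored inhibitor of MMPs and ADAM10, and to Pdlim7. Timp1 was nearest to Ppp1r14a (0.936), Apba1 and Arhgap22. Adam8 was nearest to B430306N03Rik (0.954), Trem3 and P2ry13. Adam10 was nearest to Actr1a (0.929), Ctnna1 and Gnb1, and Adam17 to Zc3h12c (0.934), Gpalpp1 and Usp8.

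Inside the fibroblasts the members split into opposite sets. A subepithelial-like subcluster led by Il1rl1, Cemip and Il11 (30 and 59 cells) was compared with an adventitial-like one led by Stmn2, Il33, Mfap5 and Pi16 (32 and 67 cells). Timp3 stood at 3059 and 784 CPM in the subepithelial-like cells and 97.1 and 24.5 in the adventitial-like cells, a difference of 4.92 ± 0.33 (adjusted p = 3.06e-48). Timp1 went the other way, at 79.0 and 90.6 against 745 and 2003 (-4.03 ± 0.33, adjusted p = 4.93e-32). For both genes the values of the subclusters did not overlap in either library. The Timp3 level of fibroblasts as a class was an average over both kinds of cells. Over the whole class, the 5 richest cells held 64.3% of Timp3 UMIs in library 1 and 41.4% in library 2. The test on sums does not measure this spread between cells.

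The aggrecanases divided between the same subclusters. Adamts5 was almost absent from the subepithelial-like subcluster, at 26.3 and 6.57 CPM (6 and 5 UMIs), and stood at 434 and 482 in the adventitial-like one (-5.29 ± 0.41, adjusted p = 5.51e-35). Its UMIs too were uneven, with 66.5% and 31.1% of those in all fibroblasts held by the 5 richest cells. Adamts4 was higher in the subepithelial-like cells, at 206 and 221 against 68.0 and 66.6 (1.61 ± 0.32, adjusted p = 6.18e-06). Adamts1 followed Adamts5, at 105 and 86.7 against 425 and 185 (-1.56 ± 0.31, adjusted p = 4.76e-06). Adam10 was higher in the subepithelial-like cells by 0.89 ± 0.35 (adjusted p = 0.0382), which did not pass with DESeq2 (0.658), with no count filter (0.123) or without the library block (0.0571). Timp2, at 474 and 507 against 677 and 493, and Adam17 did not pass (adjusted p = 0.494 and 0.820), and Adam8 was too low to be tested. The 6 calls among 8 members tested compare with 28.4% of 7311 genes. This fit of 4 sums had 1 residual degree of freedom, so its errors lean on the dispersion shared across genes.

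A smaller subepithelial-like subcluster led by Cxcl13 (16 and 18 cells, not tested) had the Timp3 side of this split, with Timp3 at 1567 and 1773 CPM and Adamts5 at 21.9 and 0, but its Adamts1 level of 569 and 305 was that of the other side. Cell by cell, 72.7% and 93.2% of the fibroblasts with an Adamts5 UMI also held Timp1, and 54.5% and 52.5% also held Adamts4. In all, 22 and 59 fibroblasts held an Adamts5 UMI.

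**Figure D3:**
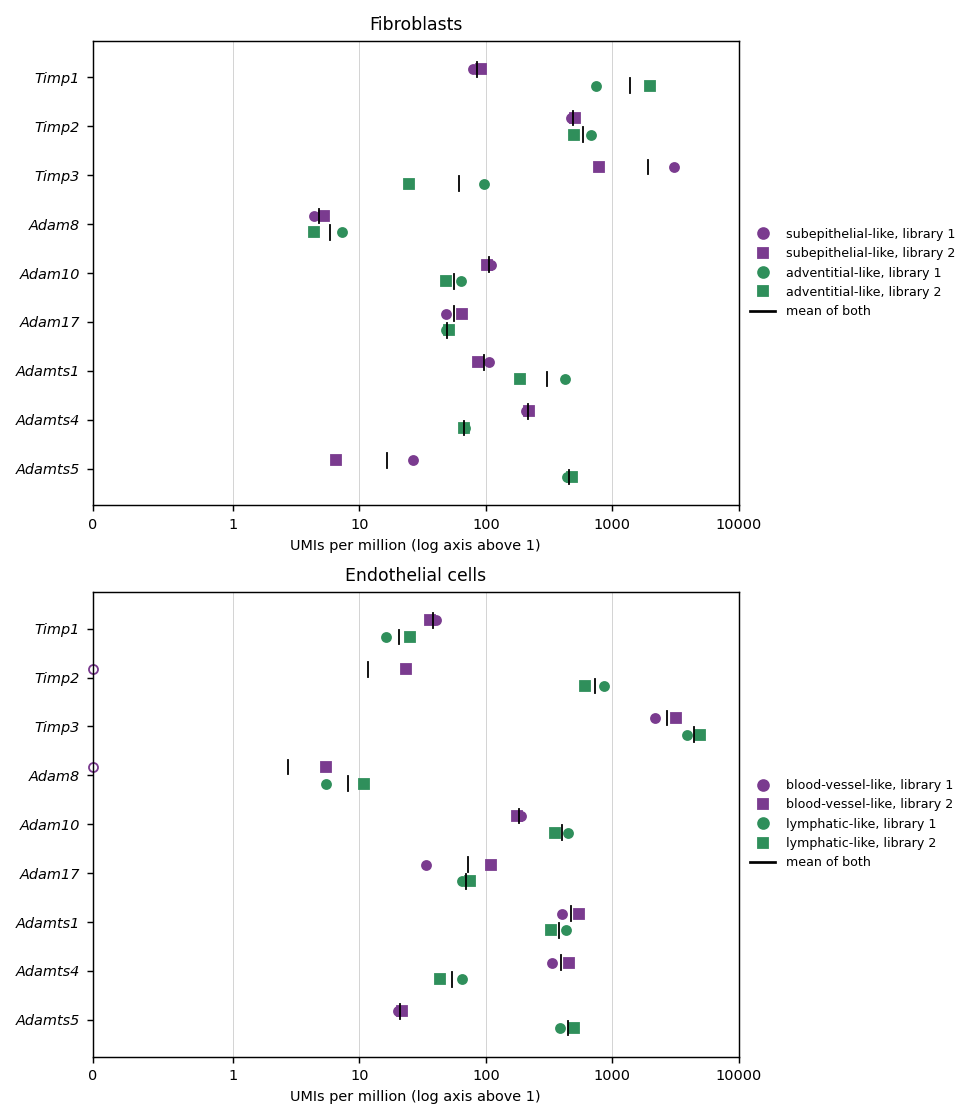
Level of each member in 2 fibroblast subclusters (top) and 2 endothelial subclusters (bottom), in CPM on an axis that is linear from 0 to 1 and logarithmic above. Circles are library 1, squares library 2 and bars the mean of both; Timp1 and Timp3 lie on opposite sides in fibroblasts, and Timp2, Adamts5 and Adamts4 separate the endothelial subclusters.

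Endothelial subclusters differed in several members. A blood-vessel-like subcluster led by Ccl2, Csf3 and Cxcl1 (20 and 54 cells) was set against a lymphatic-like one led by Ccl21a, Mmrn1 and Reln (30 and 53 cells). Timp2 had no UMI in the blood-vessel-like cells of library 1 and stood at 23.5 CPM in library 2, against 859 and 611 in the lymphatic-like cells (-5.34 ± 0.54, adjusted p = 0.00154). Adamts5 was at 20.3 and 21.7 against 389 and 499 (-4.49 ± 0.31, adjusted p = 0.000709). Adamts4 was at 332 and 450 against 64.9 and 43.1 (2.85 ± 0.34, adjusted p = 0.00251). The lymphatic-like cells held 159 of 161 and 170 of 201 endothelial Timp2 UMIs and 72 of 76 and 139 of 153 of Adamts5, and the blood-vessel-like cells 49 of 67 and 249 of 274 of Adamts4.

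The other members differed less between these subclusters. Adam10 stood at 189 and 177 CPM in the blood-vessel-like cells and 443 and 352 in the lymphatic-like cells (-1.15 ± 0.23, adjusted p = 0.0164). Timp3 was lower in the blood-vessel-like cells, at 2158 and 3210 against 3864 and 4924 (-0.79 ± 0.17, adjusted p = 0.0194). Adamts1 (399 and 544 against 427 and 327) and Adam17 did not pass (adjusted p = 0.496 and 0.922). The 5 calls among 7 members tested compare with 21.0% of 4483 genes, and this fit too had 1 residual degree of freedom. With DESeq2 there were 3 calls, without Timp3 (adjusted p = 0.161) and Adam10 (0.208), and without the library block Timp3 was lost (0.0599). The remaining subcluster, led by Mgp and Rbp7 and blood-vessel-like too (16 and 29 cells, not tested), had Adamts1 at 259 and 1004 CPM. Its Adamts4 level of 74.0 and 59.6 was near that of the lymphatic-like cells, so the high Adamts4 level was seen in 1 of the 2 blood-vessel-like subclusters. Of endothelial cells with an Adamts5 UMI, 85.2% and 75.0% also held Timp2, which was seen in 27 of 66 and 54 of 136 of all endothelial cells.

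Among mononuclear phagocytes the inhibitors changed with cell state. A monocyte-like subcluster led by Cxcl3, S100a8, S100a9 and Fn1 (233 and 610 cells) had Timp1 at 350 and 153 CPM, or 4.77 ± 0.17 above the mean of the other subclusters (adjusted p = 5.41e-10). Its Adam8 level was 371 and 254 (2.26 ± 0.14, adjusted p = 6.40e-08). S100a8 and S100a9 are also among the markers used to name neutrophils, where Adam8 stood at 468 and 420. The part of neutrophil RNA in this Adam8 level was not tested. In a macrophage-like subcluster led by Cx3cr1, Ccl8 and Ms4a7 (133 and 160 cells), Timp2 was higher, at 81.4 and 121 (2.59 ± 0.22, adjusted p = 3.65e-06), and Timp1 lower, at 6.49 and 5.25 (-2.54 ± 0.37, adjusted p = 0.000275). Adam8 was lower there too, at 72.8 and 37.4 (-1.50 ± 0.20, adjusted p = 0.000132).

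Adam17 was not called in the S100a8 subcluster (-0.13 ± 0.10, adjusted p = 0.329). It was higher in a monocyte-like subcluster led by Gm15056, Ly6i and Ccl5 (227 and 871 cells), at 138 and 168 CPM (0.90 ± 0.09, adjusted p = 2.24e-05), and in the Cx3cr1 macrophage-like cells, at 155 and 161 (0.73 ± 0.10, adjusted p = 0.000189). The Ly6i subcluster was also higher for Timp1 (1.49 ± 0.21, adjusted p = 0.000225), Adam8 (0.76 ± 0.15, adjusted p = 0.00297) and Adam10 (0.46 ± 0.12, adjusted p = 0.0139). In an unnamed subcluster with the dendritic cell genes Ccr7, Xcr1 and Fscn1 (115 and 170 cells), Adam17 was at 44.6 and 51.2 (-1.41 ± 0.13, adjusted p = 2.12e-06). Adam10 was at 41.8 and 34.6 there (-1.69 ± 0.16, adjusted p = 3.34e-06), its lowest level among the 5 subclusters in both libraries. Timp1, Timp2 and Adam8 were lower in these cells as well. In all, 5 of 6 members tested were called in at least 1 phagocyte subcluster, where 69.7% of 10287 genes were.

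**Figure D4:**
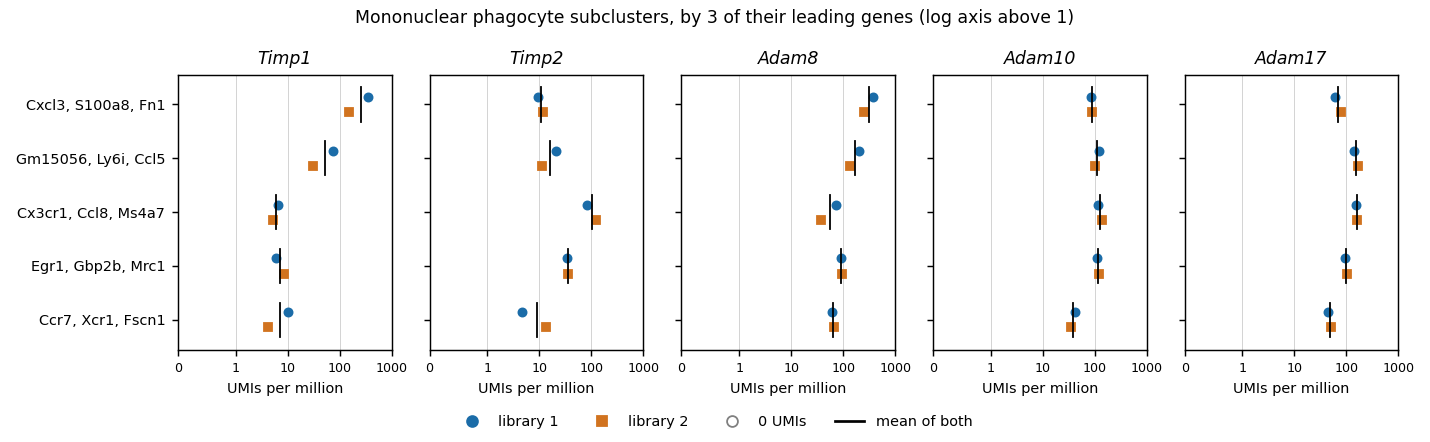
Level of 5 members in the 5 mononuclear phagocyte subclusters, each named by 3 of its leading genes, in CPM on an axis that is linear from 0 to 1 and logarithmic above, 1 point per library and a bar at the mean. Timp1 and Adam8 were highest in the S100a8 subcluster, Timp2 in the Cx3cr1 subcluster, and Adam10 and Adam17 lowest in the Ccr7 subcluster.

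In neutrophils only Adam8, of 4 members tested, was called between subclusters (background 23.2% of 6720 genes). It was lower in cells led by the interferon-induced genes Gbp2, Gbp5 and Cxcl10, at 351 and 340 CPM (-0.54 ± 0.11, adjusted p = 0.00198), and higher in cells led by Retnla and Hilpda, at 511 and 503 (0.45 ± 0.10, adjusted p = 0.0114), and the second of these did not pass with DESeq2 (0.168) or without the library block (0.0664). The former had a median of 4167 UMIs per cell and the latter 7063, and the part of depth in this difference was not tested.

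Within the T, NK and innate lymphoid class, 3 of 4 members tested were called (background 62.7% of 10200 genes). A subcluster led by Cd4, Maf, Cd40lg and Il21 (291 and 840 cells) was higher for Adam8, at 35.7 and 34.2 CPM (1.60 ± 0.23, adjusted p = 2.22e-07), and for Timp2, at 56.6 and 63.3 (1.10 ± 0.17, adjusted p = 1.91e-06). Timp2 was higher also in the subcluster led by Foxp3, the regulatory T cell factor, and Il10, at 116 and 51.2 (1.83 ± 0.29, adjusted p = 3.81e-06), where library 2 rests on 5 UMIs in 29 cells. It was lower in the Cd8b1 and Cd8a subcluster, at 15.8 and 16.02 (-1.03 ± 0.24, adjusted p = 0.00117). Adam8 was lower in the subcluster led by Klra6 and Xcl1, at 4.99 and 6.44 (-1.37 ± 0.45, adjusted p = 0.0252). Adam17 was higher in dividing cells led by histone genes, Nusap1 and Cenpf, at 47.5 and 48.9 (0.78 ± 0.18, adjusted p = 0.000562). On plain CPM the whole class stood at 38.7 and 41.2. The dividing cells had a median of 9750 UMIs, against 5246 and 4689 in the whole class. The part of scaling and depth in this call was not tested.

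In epithelium the 2 broad proteases varied with cell type by at most 1.13 on the log2 scale where called. Adam10 was lower in goblet-like cells, at 75.7 and 102 CPM (-1.13 ± 0.14, adjusted p = 1.29e-06), and in undifferentiated, dividing cells, at 93.2 and 104 (-0.99 ± 0.14, adjusted p = 4.56e-06). It was higher in each of the 4 colonocyte-like subclusters, 1 of which (led by Tgm3) did not pass with DESeq2 (0.0558), and most in the one led by Ces2a, Ubd and Selenop, at 144 and 189 (0.86 ± 0.13, adjusted p = 1.70e-05). Adam17 was lower in the goblet-like (-0.50 ± 0.14, adjusted p = 0.00375) and undifferentiated cells (-0.45 ± 0.13, adjusted p = 0.00509). It was higher in the colonocyte-like subcluster led by Ido1 and Tgm2 (0.48 ± 0.14, adjusted p = 0.0164). On plain CPM these Adam17 differences were not seen, with 23.3 and 26.6 in goblet-like, 25.4 and 27.1 in undifferentiated and 26.5 and 27.3 in Ido1 cells, and none of them passed with DESeq2 (adjusted p from 0.0542 to 0.0675). The 2 members called, of 6 tested, compare with 88.8% of 13742 genes, so this count is no result about them.

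Genes that work with the members were counted from lists made for them, to be read against the shares of all genes higher in a class (28.9% in fibroblasts, 21.6% in endothelium, 29.1% in phagocytes, 28.0% in neutrophils and 37.1% in epithelium). Of 23 ADAMTS family genes listed, 17 passed the filter on low counts, and these were higher in fibroblasts. As 15 of them were at or under 3 UMIs in B cells, 11 in neutrophils and 8 in endothelial cells, and none in fibroblasts, many may have passed the filter through fibroblasts, and the count is a description only. Adamts2, a procollagen N-propeptidase, stood at 142 and 155 CPM there, Adamts15 at 87.5 and 170 and Adamts12 at 35.2 and 30.3. Endothelial cells were higher for 6 of the 17, among them Adamts9 at 336 and 383 CPM, Adamts7 and Adamtsl1. Neutrophils were higher for 1, Adamtsl4. Of the ADAM family, 9 of 13 listed genes were tested. Phagocytes were higher for 7 and fibroblasts for 6, with Adamdec1 at 614 and 261 CPM in fibroblasts and Adam12 at 67.1 and 87.1. Neutrophils were higher for 4, with Adam19 at 86.4 and 83.6. The fourth TIMP, Timp4, did not pass the filter on low counts.

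Of the MMPs that TIMPs can inhibit, 14 of 19 listed were tested and 12 had a leading class (37.7% of all genes). Of the 14, 13 were at or under 3 UMIs in mast cells, 8 in endothelial cells and 7 in B cells, but 1 in fibroblasts. Many may have passed the filter on low counts through the class that led, so the count is a description only. Of the 12, 6 led in fibroblasts, where Mmp3 stood at 2369 and 1702 CPM and Mmp10 at 1341 and 1104. Another 3 led in neutrophils, where Mmp8 stood at 3361 and 3850, Mmp9 at 1402 and 1379 and Mmp25 at 189 and 188. In the same neutrophils Timp1 was at 0.321 and 1.66 and Timp2 at 134 and 168, and levels are not compared between genes. In phagocytes Mmp12 and Mmp19 led, and Mmp14, the membrane-bound activator of pro-MMP2, was higher than the mean of the other classes at 407 and 373. The matrix substrates of ADAMTS enzymes were higher in fibroblasts for 3 of 4 tested: Nid1 at 631 and 680, Vcan (versican) at 717 and 660 and Hspg2 (perlecan) at 209 and 189. Vcan was also higher in phagocytes, at 407 and 414, where the Adamts members were below 2 CPM.

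Regulators and substrates of ADAM10 and ADAM17 were found in many classes. Of 11 regulators tested, 4 had a leading class, a share near the 37.7% of all genes: Tspan5, a tetraspanin that carries ADAM10, in endothelium (87.0 and 75.3 CPM), Tspan15, another, in epithelium (114 and 96.2), Furin in mast cells and Frmd8 in the T, NK and innate class, the last 2 named after their values were seen. Rhbdf2, which brings ADAM17 to the cell surface, was higher in phagocytes (56.7 and 57.6 CPM, 2.07 ± 0.15, adjusted p = 5.82e-11) and in neutrophils (32.4 and 31.9, 2.10 ± 0.18 with TMM, adjusted p = 5.92e-10). Of 23 substrates tested, 15 were higher in phagocytes, 11 in endothelium and 10 each in fibroblasts, neutrophils and epithelium, the last near the 37.1% of all genes. The growth factor precursors Areg (161 and 254 CPM) and Hbegf (170 and 183) were higher in epithelial cells. Hbegf was higher in endothelial cells too, at 91.8 and 381, the top class by TMM level but with no called lead over epithelium (0.15 ± 0.39, adjusted p = 0.836). Tnf was higher in both neutrophils (144 and 93.4) and phagocytes (192 and 271). The list genes Cdh1, Cdh5, Kdr, Csf1r and Vcan are class markers too and were left out when clusters were named.

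Of the 9 leads, 5 did not pass under at least 1 alternative. With DESeq2 in place of edgeR, 5 of the 9 members kept a called leading class. The leads of Adamts1 (adjusted p = 0.267), Adamts4 (0.149), Adamts5 (0.0659) and Timp2 (0.110) no longer passed, and each kept its direction. With no count filter the Adam10 lead did not pass (0.0826). Without library 2 the Adamts1 lead was 0.14 and that of Adamts4 0.27, against 1.66 and 0.86 without library 1.

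**Figure D5:**
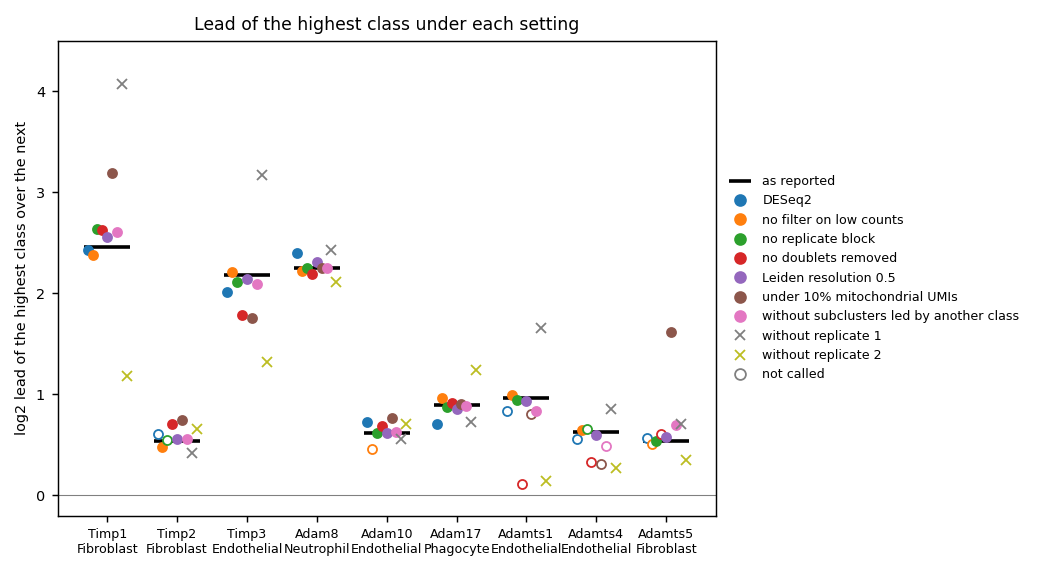
Lead of the highest class over the next for each member (log2 difference), as reported (black bars) and under each alternative, with open circles where the lead did not pass the threshold and crosses where 1 library was left out and no test was made. No lead fell below 0, and those of Timp1, Timp3, Adam8 and Adam17 passed in every tested alternative.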

How the data were processed

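The deposited matrices hold counts of unique molecular identifiers per gene and cell barcode, made by the authors with Cell Ranger 7.0.0 per the file headers and 8.0.0 per the submitters' processing notes, against mm10. The labels name both a V3 and a v2 kit. The libraries hold 76622643 and 94204110 UMIs in 6597 and 9611 barcodes. Barcodes with under 200 genes (36 and 9) or over 20% mitochondrial UMIs (840 and 475) were removed, as were 302 and 702 predicted doublets (Scrublet, 0.8% per 1000 cells). Cells were clustered in scanpy 1.11.5 (2000 variable genes, 30 components, 15 neighbours, Leiden resolution 1.0, and 0.5 for subclusters) without the members and list genes, and named from markers; the details of the naming rule were set after clusters were seen.

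UMIs were summed per library and class with at least 20 cells in each library. Sums were tested with edgeR 4.0.16 (R 4.3.3), using TMM, its filter on low counts, quasi-likelihood and Benjamini-Hochberg adjustment over all genes at 0.05. Library was a block because each library gives every class. The script was tested on simulated data. Alternatives were DESeq2 1.42.0, no count filter, no block, other cell filters and 1 library left out. Intervals are exact binomial (95%) and cover counting error only. Named list genes are up to 3 per list and class with the largest called difference, unless stated otherwise. Some items are not reported here. Members and lists were chosen with earlier results of these data known.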

Additional observations from a re-analysis of the deposited data

Results flagged for a closer look

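Smooth muscle or pericyte cells, 13 and 23 in number, entered no test outside the alternatives. In both libraries 6 members were detected there above the limit that a count of 0 allows. Timp3 averaged 766 ± 232 CPM (SD, n = 2), from 92 and 115 UMIs, and Adamts1 averaged 502 ± 148 CPM, from 60 and 76 UMIs. Adamts4 averaged 335 ± 112 CPM, from 41 and 49 UMIs. Adam10 averaged 105 ± 37.5 CPM (13 and 15 UMIs) and Timp2 95.3 ± 20.5 CPM (8 and 21 UMIs). Adam17 averaged 50.9 ± 42.4 CPM on 8 and 4 UMIs. Of the Timp3 UMIs in this class, the 5 richest cells held 92.4% in library 1 and 73.9% in library 2.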

How the results depend on the processing

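With DESeq2 the members with a called leading class went from 9 to 5, and member calls below the mean of other classes from 18 to 28. The other alternatives left 6 to 9 leading classes called, and no lead or class call changed direction. Leads that no longer passed with doublets kept were those of Adamts1 (log2 lead 0.12), Adamts4 (log2 lead 0.33) and Adamts5 (adjusted p = 0.102). Under 10% mitochondrial UMIs, Adamts1 (adjusted p = 0.0531) and Adamts4 (0.295) did not pass, and the Adamts5 lead was 1.62. Both of these cell filters also changed the tested classes. Smooth muscle or pericyte cells entered both fits, at 34 and 64 with doublets kept and 93 and 165 under 10% mitochondrial UMIs. Fibroblasts in the latter were 31 and 74 cells. With no count filter, Adam10 (0.0826) and Adamts5 (0.0919) did not pass. Without subclusters led by another class, an alternative chosen after seeing the data, Adamts4 did not pass (0.0884). Without the library as a replicate block, 7 leading classes were called, with Adamts4 (0.0666) and Timp2 (0.0586) lost, and subcluster calls went from 47 to 42, against 38 with DESeq2 and 49 with no count filter. With either library left out, all 9 highest classes were the same. The cause of these changes was not tested. Stromal depth limits the rest: fibroblasts gave 90 and 187 cells and endothelial cells 66 and 136.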
